A study of Mus musculus with 28 samples.

Results

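The glucocorticoid receptor, the chaperones that hold it ready for hormone and the enzyme that removes the hormone were followed through 8 genes: Nr3c1, Nr3c2, Fkbp5, Fkbp4, Hsp90aa1, Hsp90ab1, Ptges3 and Hsd11b2. The genes were chosen by name for these roles, with earlier results of these data known, so counts of them called are description and no test of the set. All 8 were found among the 13128 named genes of the deposited expression table. Without hormone the receptor sits in the cytoplasm with an Hsp90 dimer (Hsp90aa1, Hsp90ab1), the cochaperone p23 (Ptges3) and an immunophilin of the FKBP family. Fkbp51 (Fkbp5) keeps its affinity for hormone low, and exchange for Fkbp52 (Fkbp4) favours hormone binding and transport into the nucleus. In many cell types hormone lowers the receptor's own mRNA and raises that of Fkbp51, and 11-beta-hydroxysteroid dehydrogenase type 2 (Hsd11b2) oxidizes corticosterone to a form that the receptor does not bind.

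The genes were measured in DC2 cells, an immortalized epithelial line derived from the mouse epididymis, the duct in which sperm become fertile. Confluent monolayers on collagen were given corticosterone, the principal glucocorticoid of mice, at 500 ng/ml in ethanol, or 0.1% ethanol as vehicle, and fresh medium was supplied on days 3 and 6. Treated cells were collected on day 3, when exposure ended, and on days 6 and 9, after 3 and 6 days of recovery, and vehicle cells on days 3, 6 and 9 and, before any treatment, on day 0. Each of these 7 groups held 4 libraries, all from 1 cell line in medium with 10% fetal bovine serum, and the labels do not say whether they were separate cultures, so p-values measure the spread between libraries only.

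Levels are given as log2 CPM (counts scaled to the size of the library, as the authors normalized them) and differences as log2 fold changes ± SE from limma, fitted to all genes, with adjusted p under 0.05 as the call. From the steps between low values 1 read was worth about 0.0207 to 0.0422 CPM, which puts Nr3c2 at about 35 to 360 reads, Hsd11b2 at about 27 to 380 and the other 6 genes at 1400 or more in every library. Over all genes, corticosterone day 3 replicate 4 lay farthest from its group mean (root mean square 0.520 log2 units, against 0.249 to 0.366 in the other 27 libraries), and corticosterone day 6 replicate 6 lay apart from its group for Fkbp5 and Hsd11b2. Of 10 epithelial markers 8 were among the genes tested, and of 16 markers of differentiated caput epididymis 0 were. Cldn4 and Krt18 were the highest epithelial markers (means of 4.94 and 4.49 log2 CPM), then Cdh1 (2.77). Epcam, Krt19, Ocln, Krt8 and Krt7 were low, at -0.37 to 1.09, and the fibroblast markers Pdgfrb and Dcn had means of 4.96 and 4.33. On day 3 the epithelial markers summed to 5.99 to 6.39 with corticosterone and 6.25 to 6.29 with vehicle. Leukocyte markers were represented by 2 of 8, Cd68 and Csf1r (means of 4.61 and -0.76 log2 CPM), without the defining marker Ptprc. The sum of these 2 is thus mostly Cd68, and 1 gene does not show leukocytes in the cultures. It was 2.98 to 3.49 log2 CPM with corticosterone and 4.83 to 4.89 with vehicle on day 3. The sum was 3.36 to 3.79 and 5.62 to 5.85 on day 6, and 5.52 to 5.67 and 6.45 to 6.76 on day 9. The 5 of 8 fibroblast markers tested summed to 6.82 to 7.06 with corticosterone and 5.93 to 6.03 with vehicle on day 3, and overlapped on days 6 and 9. The 3 of 5 endothelial markers tested summed to 2.98 to 3.43 with corticosterone and 1.09 to 1.74 with vehicle on day 3, and to 2.69 to 3.84 and 1.42 to 1.85 on day 6, and overlapped on day 9. Over all libraries Kdr ran from -4.15 to 3.35 log2 CPM, Vwf from -1.58 to 1.63 and Pecam1 from -0.12 to 2.03. Of the fibroblast markers, Dcn ran from 0.19 to 6.68 and Pdgfrb from 4.00 to 5.79. These sums can thus rest on 1 gene each and do not show such cells in the cultures. The part of these shifts in the results was not tested, and in bulk RNA fewer cells of a type and less RNA per cell cannot be told apart.

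Corticosterone moved most of these genes by day 3, and most in a direction that had changed or shrunk by day 9. On day 3 Fkbp5 rose and Nr3c1, Hsd11b2, Hsp90aa1, Hsp90ab1 and Ptges3 fell, 6 of 8 genes called in limma where 49% of all genes were (23.3% higher and 25.6% lower). On day 6 the count was again 6 of 8, beside 47.2% of all genes (22.9% higher and 24.3% lower), with Hsd11b2 now higher with hormone. On day 9 it was 5 of 8, beside 28.5% of all genes (14.1% higher and 14.4% lower): Fkbp5, Hsd11b2, Hsp90aa1 and Hsp90ab1 were higher and Nr3c1 lower. Nr3c2 and Fkbp4 were not called on any of these days. Libraries of the groups did not overlap for 6, 6 and 4 of the 8 genes on days 3, 6 and 9, against 38.5, 48.3 and 32.9% of all genes.

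**Figure D1:**
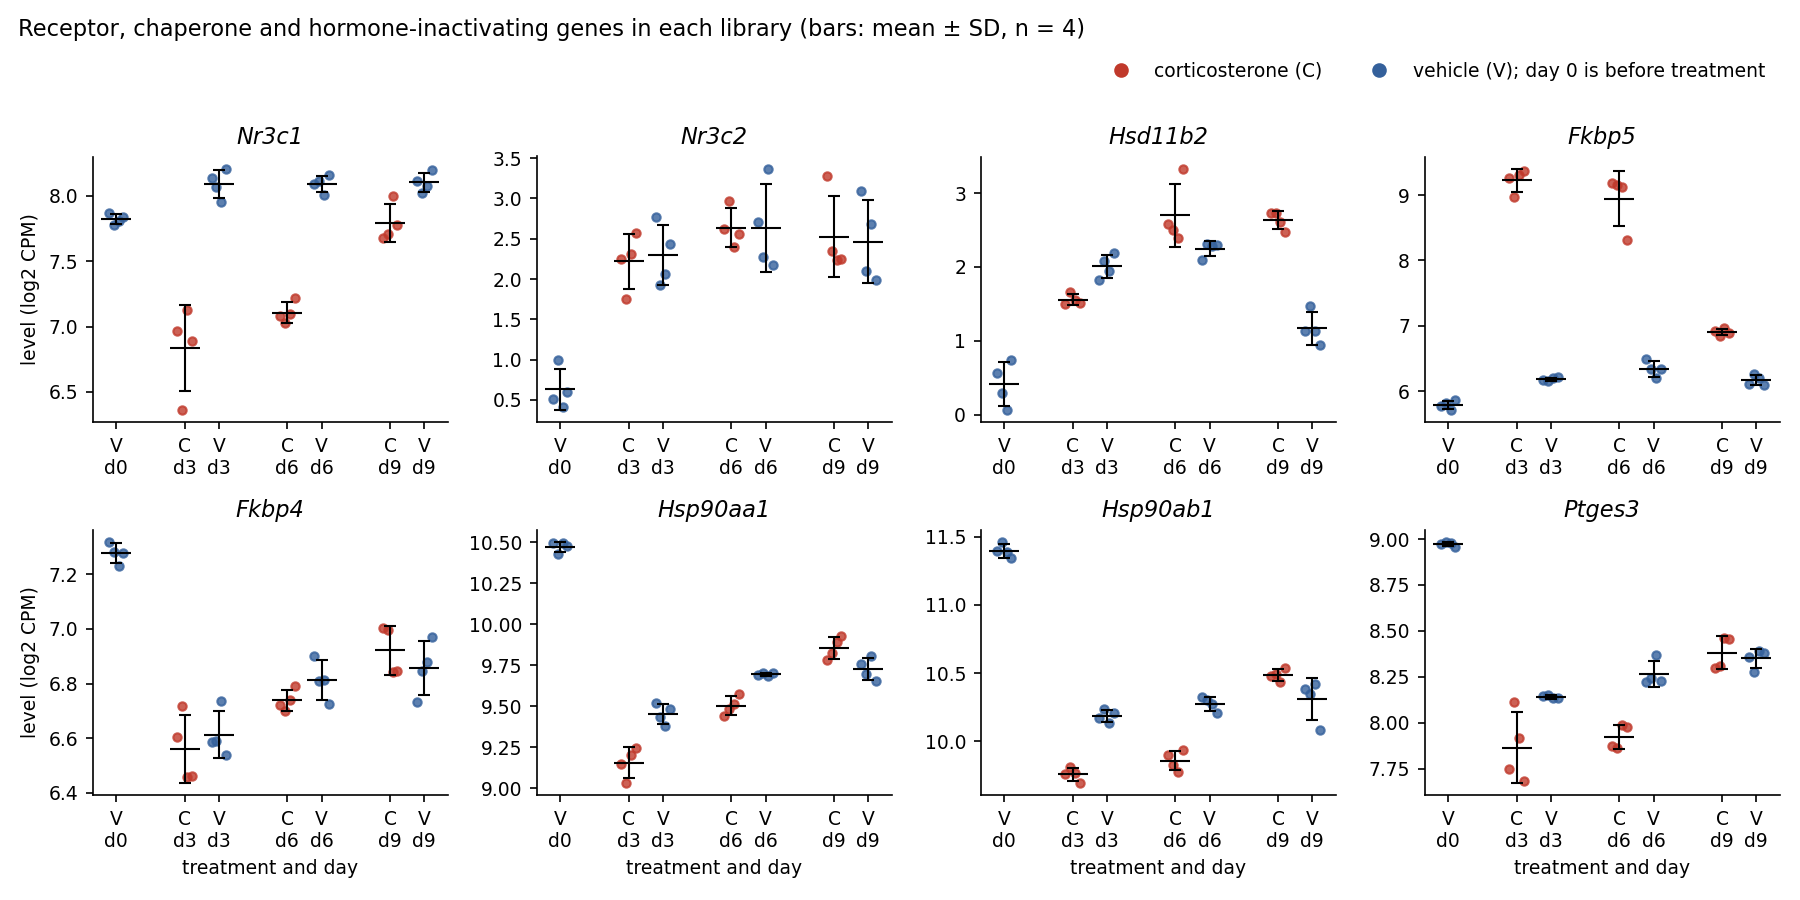
Level of each gene in every library (vertical axis, log2 CPM, a separate scale per panel) by treatment and day, with corticosterone in red and vehicle in blue; bars are mean ± SD of 4 libraries. Fkbp5 stands at 8.97 to 9.37 in treated libraries of day 3 and at 6.85 to 6.97 in those of day 9, while Fkbp4, Hsp90aa1, Hsp90ab1 and Ptges3 have their highest group at day 0.

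The receptor gene Nr3c1 was lower with hormone on all 3 days, and the gap narrowed. Its levels on day 3 were 6.97, 6.36, 7.13 and 6.89 log2 CPM in the corticosterone libraries and 8.14, 8.07, 7.95 and 8.21 in the vehicle libraries. The groups lay far apart, and the lowest value, 6.36, was that of replicate 4, the library farthest from its group. The fall was 1.26 ± 0.10 log2 units, to 0.418 of the vehicle level (limma adjusted p = 8.26e-11), and without that library it was 1.10. On day 6 the treated libraries held 7.08, 7.03, 7.10 and 7.22 log2 CPM and the vehicle libraries 8.09, 8.11, 8.01 and 8.16, still without overlap 3 days into recovery. On day 9 they held 7.67, 7.71, 8.002 and 7.78 against 8.12, 8.02, 8.08 and 8.20, so the highest treated library came to just under the lowest vehicle one. That gap, -0.31 ± 0.10 (95% interval -0.52 to -0.11, limma adjusted p = 0.021), lost its call on leaving out vehicle replicate 6 (-0.28) or either of the treated replicates 3 (-0.27) and 4 (-0.29).

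Ordered by mean, the levels of Nr3c1 were highest in vehicle on days 9, 3 and 6 (8.10 ± 0.07, 8.09 ± 0.11 and 8.09 ± 0.06 log2 CPM, SD, n = 4 each), groups that overlapped one another. Untreated day 0 cells (7.82 ± 0.04) came next and overlapped with corticosterone day 9 (7.79 ± 0.15). Corticosterone days 6 and 3 (7.11 ± 0.08 and 6.83 ± 0.33) were lowest and overlapped each other. After 6 days of recovery, then, the treated libraries spanned the range of day 0 cells and were below every vehicle library of the same day.

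Nr3c2, on chromosome 8 (chr8:76899442-77245012, plus strand, GRCm38), encodes the mineralocorticoid receptor, which also binds corticosterone where no enzyme removes it. Treated libraries held 2.25, 1.75, 2.31 and 2.57 log2 CPM on day 3 and vehicle libraries 2.77, 1.93, 2.06 and 2.43, with full overlap. The differences were -0.08 (95% interval -0.64 to 0.48), 0.01 (-0.55 to 0.57) and 0.06 (-0.50 to 0.62) on days 3, 6 and 9, and changed sign with single libraries. The intervals are wide at so low a level and hold changes of about 0.5 log2 units in either direction. Within a library the CPM of Nr3c1 stood to that of Nr3c2 as 24.5 to 1 with corticosterone and 55.6 to 1 with vehicle on day 3 (geometric means, n = 4 each). The ratio was 22.2 and 44.0 on day 6 and 38.5 and 49.9 on day 9, and in untreated day 0 cells it was 146. Such a ratio also reflects transcript length, so only its differences between groups can be read, and these were not tested.

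Fkbp5, which encodes the cochaperone Fkbp51, had the largest hormone effect of the 8 genes on days 3 and 6. Its levels on day 3 were 9.26, 8.97, 9.31 and 9.37 log2 CPM with corticosterone and 6.16, 6.16, 6.20 and 6.21 with vehicle. The vehicle libraries were nearly equal and the treated ones stood 8.26-fold higher (3.05 ± 0.12, limma adjusted p = 1.21e-16). On day 6 the treated libraries held 9.19, 9.16, 9.13 and 8.32 and the vehicle libraries 6.49, 6.34, 6.20 and 6.34. Thus 3 treated libraries remained near 9.2 after 3 days without added hormone and replicate 6 lay well below them. The effect was 6.09-fold, or 2.61 log2 units, and 2.82 without replicate 6. On day 9 the levels were 6.92, 6.85, 6.97 and 6.90 against 6.11, 6.26, 6.19 and 6.09, a 1.67-fold difference without overlap (95% interval 0.49 to 0.99 log2 units, limma adjusted p = 3.98e-05). Vehicle groups of days 3, 6 and 9 overlapped one another in part, and all were above the 5.71 to 5.86 of day 0.

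Fkbp4, which encodes Fkbp52, the immunophilin that Fkbp51 is exchanged for, was not called between treatments. Its levels on day 3 were 6.602, 6.72, 6.46 and 6.46 log2 CPM with corticosterone and 6.58, 6.59, 6.74 and 6.54 with vehicle, which overlap. The differences were -0.05 (95% interval -0.18 to 0.07), -0.07 (-0.20 to 0.05) and 0.06 (-0.06 to 0.19) on days 3, 6 and 9. These intervals reach at most 0.20 log2 units on either side of 0, against 3.05 for its paralog on day 3.

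**Figure D2:**
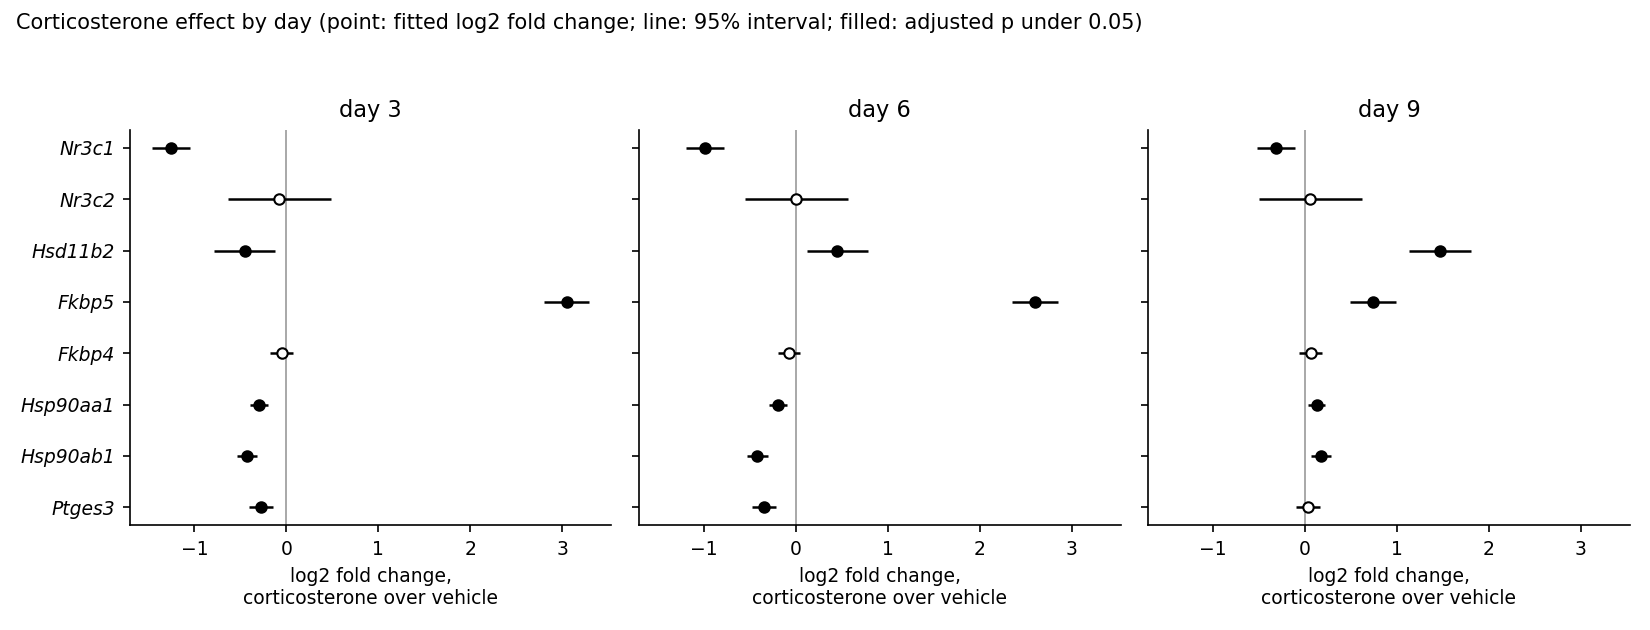
Log2 fold change of corticosterone over vehicle (horizontal axis) for the 8 genes on days 3, 6 and 9; points are limma estimates, lines 95% intervals, and filled points passed adjusted p under 0.05. Fkbp5 goes from 3.05 on day 3 to 0.74 on day 9, Hsd11b2 from -0.45 to 1.47, and Fkbp4 and Nr3c2 stay unfilled throughout.

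Within a library the 2 immunophilins changed places. The ratio of Fkbp5 to Fkbp4 CPM was 6.36 with corticosterone and 0.743 with vehicle on day 3 (geometric means, n = 4 each), 4.62 and 0.721 on day 6, and 0.989 and 0.619 on day 9. In day 0 cells it was 0.356. Per kilobase of the longest annotated coding transcript, Fkbp5 stood at 7.28 ± 0.18 log2 CPM and Fkbp4 at 5.41 ± 0.12 with corticosterone on day 3 (SD, n = 4), while with vehicle the order was reversed, at 4.24 ± 0.02 for Fkbp5 and 5.46 ± 0.09 for Fkbp4. On day 9 Fkbp5 was again the lower of the pair in treated cells, at 4.96 ± 0.05 against 5.77 ± 0.09 for Fkbp4.

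**Figure D3:**
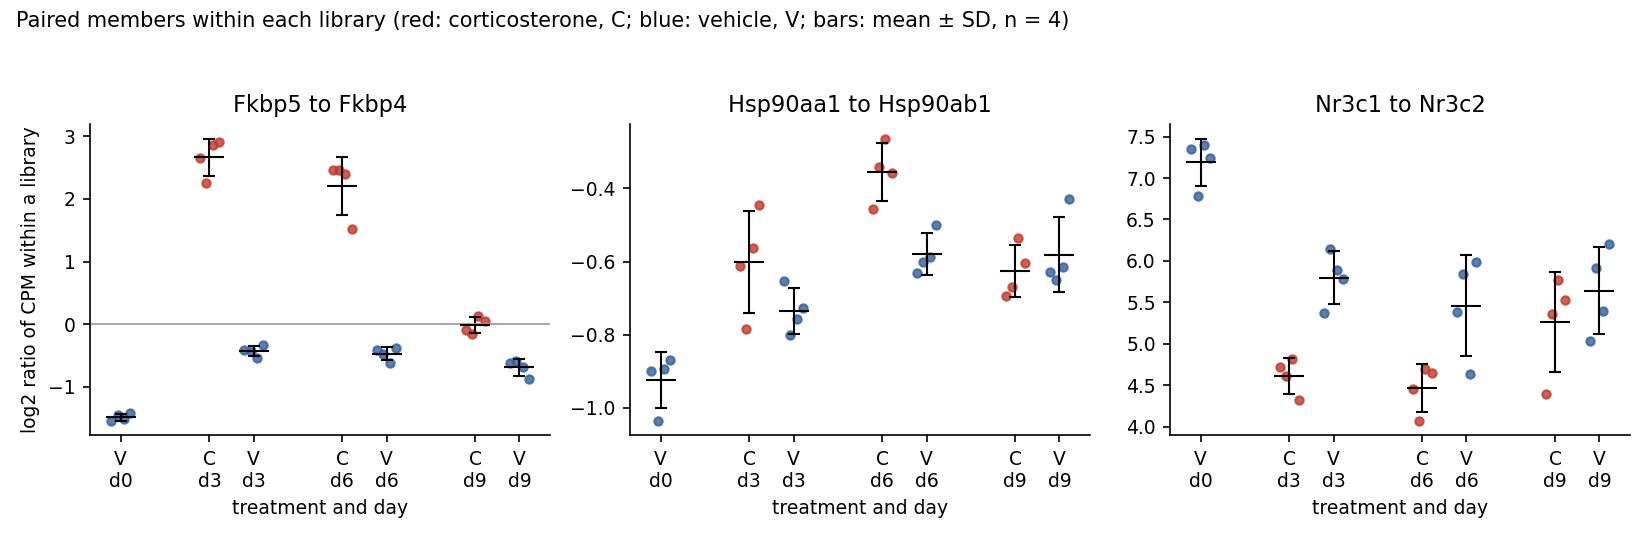
Log2 ratio of CPM within each library (vertical axis, a separate scale per panel) for 3 pairs of related genes, with corticosterone in red and vehicle in blue; bars are mean ± SD of 4 libraries. Fkbp5 to Fkbp4 averages 2.67 in treated libraries of day 3, 2.21 in those of day 6 and -0.02 in those of day 9, and is below 0 in all vehicle libraries.

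The stretches just before the start sites of this pair are printed because the 2 paralogs responded so differently. Both come from RefSeq's GRCm38.p6 annotation, 250 bases up to the start, read 5′ to 3′ on the gene's own strand, at chr17:28486150-28486399 (minus strand) for Fkbp5 and chr6:128438657-128438906 (minus strand) for Fkbp4. Capitals mark the CCAAT box, the GC box GGGCGG and the heat shock element core GAANNTTC, each on either strand.
Fkbp5: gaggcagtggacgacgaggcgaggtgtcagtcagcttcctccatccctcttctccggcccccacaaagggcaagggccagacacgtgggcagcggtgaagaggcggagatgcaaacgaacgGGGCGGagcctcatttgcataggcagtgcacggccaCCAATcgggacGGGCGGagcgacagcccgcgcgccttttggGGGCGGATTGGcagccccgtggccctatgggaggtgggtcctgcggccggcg
Fkbp4: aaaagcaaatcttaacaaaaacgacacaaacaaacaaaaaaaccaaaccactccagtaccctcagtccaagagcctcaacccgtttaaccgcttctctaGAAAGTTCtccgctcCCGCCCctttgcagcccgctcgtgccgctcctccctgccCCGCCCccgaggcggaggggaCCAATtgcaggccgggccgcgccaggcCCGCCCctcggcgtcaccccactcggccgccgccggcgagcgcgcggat

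The Fkbp5 window held 2 CCAAT boxes, at -93 and -46 from the start, and 3 GC boxes, at -129, -82 and -52. The Fkbp4 window held 1 CCAAT box at -76, 3 GC boxes at -136, -97 and -49, and the heat shock core at -151. Neither held the glucocorticoid response palindrome, AGAACA and TGTTCT 3 bases apart, which 1 of 27025 such windows did, nor its arm AGAACA alone, which 16.2% did. Of the same windows, 34.5% held a CCAAT box, 32.9% a GC box and 6.78% the heat shock core. The longer heat shock element, the core and a further GAA 2 bases on, was in 0.4% of all windows and in neither of these. Both strands were searched, the arm lies within the palindrome, and the marked motifs do not overlap here. A match describes these letters only, and the response elements described for human FKBP5 lie in introns and distal enhancers, outside such a window. Of the 8 genes 4 had a window in the table used. Only 1 start per gene was searched. The annotated Fkbp5 gene reaches chr17:28517527, upstream of the printed window, so any start farther upstream was not covered.

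The Hsp90 genes, which encode the inducible and the constitutive form of the chaperone that folds the receptor's hormone pocket, fell with hormone and then passed the vehicle level. Hsp90aa1 (chr12:110690605-110702728, minus strand, GRCm38) stood at 9.15, 9.03, 9.20 and 9.25 log2 CPM with corticosterone and at 9.52, 9.44, 9.38 and 9.48 with vehicle on day 3, without overlap. On day 6 it stood at 9.44, 9.48, 9.51 and 9.58 against 9.69, 9.70, 9.68 and 9.70, and the vehicle libraries were nearly equal. On day 9 the order turned, with 9.78, 9.82, 9.89 and 9.93 against 9.76, 9.70, 9.80 and 9.66, and the groups overlapped. It fell by 0.30 ± 0.05 on day 3 and by 0.19 ± 0.05 on day 6 (limma adjusted p = 5.28e-06 and 0.000972) and was higher by 0.13 ± 0.05 on day 9 (adjusted p = 0.0344). The day 9 call was lost without vehicle replicate 4 (0.12) or 6 (0.11), without corticosterone replicate 5 (0.12) or 6 (0.11), and with these 2 groups fitted alone (adjusted p = 0.0567), and the value was 0.22 after quantile normalization.

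Hsp90ab1 (chr17:45567775-45573271, minus strand, GRCm38) followed the same course with a larger fall. On day 3 it was at 9.76, 9.81, 9.77 and 9.69 log2 CPM with corticosterone and at 10.17, 10.24, 10.14 and 10.21 with vehicle, a fall of 0.43 ± 0.05 (limma adjusted p = 2.53e-07), or of 0.65 after quantile normalization. On day 6 it was at 9.90, 9.82, 9.77 and 9.94 against 10.32, 10.30, 10.27 and 10.20, a fall of 0.42 ± 0.05 (limma adjusted p = 3.85e-07). Both days kept the groups clear of each other. On day 9 the treated libraries, at 10.48, 10.49, 10.43 and 10.53, were all above the vehicle libraries, at 10.39, 10.35, 10.42 and 10.09. That rise, 0.17 ± 0.05 (limma adjusted p = 0.017), was 0.30 after quantile normalization, was not called without vehicle replicate 6 (0.10) or corticosterone replicate 6 (0.16), and not with the 2 groups alone (adjusted p = 0.0746).

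Ptges3 encodes p23, which closes Hsp90 around its client, and is also known as a prostaglandin E synthase (chr10:128058954-128077272, plus strand, GRCm38). Its day 3 levels were 7.75, 8.11, 7.91 and 7.68 log2 CPM with corticosterone and 8.15, 8.15, 8.13 and 8.13 with vehicle. All treated libraries were lower, and replicate 4, the library farthest from its group, came closest to vehicle. The fall was 0.28 ± 0.06 (limma adjusted p = 0.000666), and 0.36 without that library. On day 6 it was at 7.87, 7.86, 7.99 and 7.97 against 8.22, 8.24, 8.37 and 8.22, a fall of 0.34 ± 0.06 (limma adjusted p = 6.15e-05). On day 9 the levels were 8.30, 8.31, 8.46 and 8.46 against 8.36, 8.27, 8.39 and 8.38, which overlap, and the difference of 0.03 (95% interval -0.10 to 0.16) was not called. The Hsp90aa1 to Hsp90ab1 ratio of CPM was 0.659 with corticosterone and 0.601 with vehicle on day 3, 0.782 and 0.669 on day 6, 0.648 and 0.668 on day 9, and 0.527 at day 0, so the inducible form took its largest share in treated cells of day 6.

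Hsd11b2, whose enzyme oxidizes corticosterone (chr8:105518755-105523988, plus strand, GRCm38), was lower with hormone on day 3 and higher afterwards. On day 3 its levels were 1.501, 1.66, 1.55 and 1.51 log2 CPM with corticosterone and 1.83, 2.08, 1.95 and 2.18 with vehicle. On day 6 they were 2.58, 2.50, 2.39 and 3.33 against 2.10, 2.32, 2.29 and 2.29, with replicate 6 far above the other treated libraries. On day 9 they were 2.73, 2.73, 2.61 and 2.47 against 1.13, 1.47, 1.13 and 0.94. The groups did not overlap on any of the 3 days, and the day 9 difference was 2.77-fold (1.47 ± 0.16, limma adjusted p = 1.18e-07). The day 9 gap went with a lower vehicle level, 1.17 ± 0.22 log2 CPM against 2.25 ± 0.10 in vehicle of day 6 (SD, n = 4 each), while treated cells stood at 2.64 ± 0.12 on day 9 and 2.70 ± 0.43 on day 6.

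The smaller Hsd11b2 differences rested on few libraries. The day 3 fall of 0.45 ± 0.16 (limma adjusted p = 0.0222) was not called without vehicle replicate 4 (-0.43) or 6 (-0.40). The day 6 rise of 0.45 ± 0.16 (limma adjusted p = 0.023) was not called without corticosterone replicate 6 (0.24), without vehicle replicate 3 (0.40) or with the 2 groups alone (adjusted p = 0.0659). With 5 CPM added before the log, the day 3, 6 and 9 values were -0.19, 0.25 and 0.63, all called, as the gene is near the low end of the table. H6pd supplies the cofactor of the opposite enzyme, type 1, which regenerates corticosterone in other tissues and whose gene Hsd11b1 is not analysed here. It stood at 7.79 ± 0.15 log2 CPM with corticosterone and 7.10 ± 0.05 with vehicle on day 3, at 7.81 ± 0.19 and 7.22 ± 0.06 on day 6, and at 7.20 ± 0.06 in both on day 9 (SD, n = 4 each). It rose by 0.69 ± 0.07 and 0.59 ± 0.07 on days 3 and 6 (limma adjusted p = 5.91e-09 and 8.2e-08) and differed by -0.00049 ± 0.07 on day 9.

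In vehicle cells, given no corticosterone, all 8 genes differed from day 0. Day 0 cells had received no ethanol and the later vehicle cells 0.1%, so time in culture and ethanol cannot be told apart here. Against day 0, vehicle libraries of days 3, 6 and 9 were called for 8 of 8 genes each time, where 69.2, 70.1 and 70.4% of all genes were called, and the groups did not overlap for 8 of 8, against 66.8, 66.9 and 66.5%. The receptors, Hsd11b2 and Fkbp5 rose and the 4 other chaperone genes fell, on each day. Nr3c2 stood at 0.52, 1.00, 0.41 and 0.60 log2 CPM on day 0 and rose most, by 1.67 ± 0.27, 1.999 ± 0.27 and 1.83 ± 0.27 on days 3, 6 and 9 (limma adjusted p = 5.91e-06, 3.77e-07 and 1.44e-06). Hsd11b2 stood at 0.57, 0.29, 0.06 and 0.73 on day 0 and rose by 1.60 ± 0.16, 1.83 ± 0.16 and 0.75 ± 0.16, the last not called after quantile normalization (0.27). Both genes are near the low end, and with 5 CPM added the rises shrank to 0.60, 0.79 and 0.70 for Nr3c2 and to 0.51, 0.62 and 0.19 for Hsd11b2.

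Fkbp5 rose by 0.39 ± 0.12, 0.55 ± 0.12 and 0.37 ± 0.12 in vehicle cells, small beside its hormone effect. Nr3c1, at 7.87, 7.78, 7.81 and 7.84 log2 CPM on day 0, rose by 0.27 ± 0.10, 0.27 ± 0.10 and 0.28 ± 0.10 (limma adjusted p = 0.0202, 0.0208 and 0.016). The first was not called without vehicle day 3 replicate 6 (0.23) and was 0.48 after quantile normalization. The second was not called without vehicle day 6 replicate 6 (0.25) and was 0.42 after quantile normalization. Hence, for Nr3c1, culture in vehicle and corticosterone went in opposite directions.

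Day 0 cells had the highest level of the Hsp90 genes, Ptges3 and Fkbp4. Hsp90ab1 stood at 11.39, 11.46, 11.39 and 11.34 log2 CPM on day 0 and was lower by 1.21 ± 0.05, 1.12 ± 0.05 and 1.09 ± 0.05 log2 units in vehicle of days 3, 6 and 9. Hsp90aa1 stood at 10.49, 10.43, 10.50 and 10.48 and fell by 1.02 ± 0.05, 0.78 ± 0.05 and 0.74 ± 0.05. Ptges3, at 8.96 to 8.98 in all day 0 libraries, fell by 0.83 ± 0.06, 0.71 ± 0.06 and 0.62 ± 0.06. Fkbp4, at 7.23 to 7.32, fell by 0.67 ± 0.06, 0.47 ± 0.06 and 0.42 ± 0.06. The largest limma adjusted p of these 12 falls was 6.8e-07. After quantile normalization the falls of Hsp90aa1 were 0.52, 0.39 and 0.45 and those of Ptges3 0.52, 0.46 and 0.41, all still called.

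In treated cells more of the 8 genes were called between days 6 and 9 than between days 3 and 6, as was so over all genes. The count between days 3 and 6 ran from 2 to 5 with single libraries left out. Between days 3 and 6, 4 of 8 genes were called, beside 30.3% of all genes, all of them higher on day 6, as were 15.2% of all genes, with 15% lower. Hsd11b2 rose by 1.15 ± 0.16, Hsp90aa1 by 0.35 ± 0.05, Nr3c1 by 0.27 ± 0.10 and Fkbp4 by 0.18 ± 0.06 (limma adjusted p = 6.15e-06, 2.43e-06, 0.0428 and 0.0246). The rise of Nr3c1 was 0.11 (adjusted p = 0.243) without corticosterone day 3 replicate 4 and was not called without any single treated library of day 6 (0.24 to 0.30), and that of Fkbp4 was not called without replicate 5 (0.14) or 6 (0.15) of day 3 or replicate 6 of day 6 (0.16). Fkbp5 differed by -0.28 ± 0.12 (adjusted p = 0.0808), which was called without replicate 4 of day 3 (-0.37) or without replicate 3 (-0.36) or 1 (-0.35) of day 6. Without replicate 6 of day 6, which lay apart for Fkbp5, it was only -0.07 (adjusted p = 0.49). With that library and replicate 4 of day 3 both left out, the difference was -0.16 and was called (limma adjusted p = 0.0416). Ptges3 differed by 0.06 ± 0.06, and by 0.14, called, without replicate 4 of day 3. The groups did not overlap for 2 of 8 genes, against 24% of all genes. Between days 6 and 9, 6 of 8 were called, beside 49.6% of all genes. Fkbp5 fell by 2.04 ± 0.12, to 0.243 of the day 6 level, and Nr3c1, Hsp90ab1, Ptges3, Hsp90aa1 and Fkbp4 rose by 0.68 ± 0.10, 0.63 ± 0.05, 0.46 ± 0.06, 0.36 ± 0.05 and 0.18 ± 0.06 (largest limma adjusted p = 0.0125). The groups did not overlap for 6 of 8 genes, against 49.7% of all genes.

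Whether the hormone effect itself differed between days was tested as the difference of the 2 gaps to vehicle. From day 3 to day 6 only Hsd11b2 was called among the 8, beside 9.11% of all genes, its effect moving upward by 0.91 ± 0.23 (limma adjusted p = 0.0113). The effect on Fkbp5 moved by -0.44 ± 0.17 (adjusted p = 0.117), by -0.53, which was called, without corticosterone day 3 replicate 4, and by -0.23 (adjusted p = 0.16) without corticosterone day 6 replicate 6. It was also called without both of these libraries (-0.32, limma adjusted p = 0.0061) and with library weights (-0.43, limma adjusted p = 0.0307). From day 6 to day 9, 6 of 8 effects differed, beside 30.9% of all genes, and from day 3 to day 9 again 6 of 8, beside 38.3%. The day 9 effect differed from that of day 3 by 0.95 ± 0.14 for Nr3c1, by -2.30 ± 0.17 for Fkbp5, by 1.92 ± 0.23 for Hsd11b2, by 0.43 ± 0.06 for Hsp90aa1, by 0.61 ± 0.08 for Hsp90ab1 and by 0.31 ± 0.09 for Ptges3 (largest limma adjusted p = 0.00767). After quantile normalization those of Hsp90aa1 and Hsp90ab1 were 0.67 and 0.95, and with 5 CPM added the Hsd11b2 effect moved by 0.44 from day 3 to 6, 0.38 from day 6 to 9 and 0.81 from day 3 to 9, all called. For Nr3c2 and Fkbp4 the differences were 0.14 (95% interval -0.65 to 0.93) and 0.12 (-0.06 to 0.29) and were not called. With library weights the effect on Fkbp4 moved by 0.18 from day 3 to 9 (adjusted p = 0.0478) and by 0.21 from day 6 to 9 (adjusted p = 0.0173), which were called.

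Set per kilobase, the Hsp90 genes stood highest and Hsd11b2 and Nr3c2 lowest. The group means ran, in log2 CPM per kilobase, between 8.42 and 10.06 for Hsp90ab1, 7.44 and 8.76 for Hsp90aa1, 6.86 and 7.97 for Ptges3 and 5.41 and 6.13 for Fkbp4. They ran between 4.15 and 5.42 for Nr3c1, 3.84 and 7.28 for Fkbp5, -0.47 and 1.82 for Hsd11b2 and -1.93 and 0.07 for Nr3c2. Hsp90ab1 was above Hsp90aa1 in every group, and in every group the receptor Nr3c1 was the higher of the receptors. With corticosterone on day 3 Fkbp5, at 7.28, stood above Ptges3, at 6.86, and just under Hsp90aa1, at 7.44.

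Other genes of the pathway were counted in lists by role, none of which holds a member. The median over all genes was near 0 on each day (-0.0091, -0.0016 and 0.0029 on days 3, 6 and 9). The 6 lists had 44.4 to 69.2% of their measured genes called on day 3, 38.9 to 69.2% on day 6 and 13.9 to 61.5% on day 9, around the 49, 47.2 and 28.5% of all genes. Of 34 cochaperones and Hsp70 system genes 5 rose and 12 fell on day 3 (median -0.02), 9 rose and 13 fell on day 6 (median -0.10), and 12 rose and 1 fell on day 9 (median 0.11). The 50% of these genes called on day 3 is close to the 49% of all genes. Without the 2 treated libraries that lay apart, 5 rose and 15 fell on day 3 (median -0.11), and 11 rose and 16 fell on day 6 (median -0.11). Hspa1a, an inducible Hsp70, stood at 0.71 ± 0.18 log2 CPM with corticosterone and 2.74 ± 0.17 with vehicle on day 3 (SD, n = 4 each), a fall of 2.03 ± 0.17 (limma adjusted p = 1.02e-10), and fell by 1.79 ± 0.17 on day 6. It shares most of its sequence with Hspa1b, so reads of the pair may not be fully separated. Stip1, which links Hsp70 to Hsp90, fell by 0.37 ± 0.05 on day 3 and 0.33 ± 0.05 on day 6, and Nudcd2 by 0.29 ± 0.05 and 0.25 ± 0.05. Trap1, the mitochondrial Hsp90, rose by 0.45 ± 0.04, 0.45 ± 0.04 and 0.51 ± 0.04 on days 3, 6 and 9. Dnajb4, a J-domain partner of Hsp70, and Unc45a, an Hsp90 cochaperone, rose by 0.50 ± 0.07 and 0.53 ± 0.11 on day 3.

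Of 18 genes of nuclear transport, which carries the receptor to DNA, 1 rose and 10 fell on day 3 (median -0.25), 0 rose and 7 fell on day 6 (median -0.12), and 5 rose and 0 fell on day 9 (median 0.07). Kpna2, an importin alpha, stood at 5.90 ± 0.10 log2 CPM with corticosterone and 6.68 ± 0.10 with vehicle on day 3, and at 7.03 ± 0.07 and 6.74 ± 0.07 on day 9. It fell by 0.78 ± 0.06 on day 3 and rose by 0.28 ± 0.06 on day 9 (limma adjusted p = 2.27e-11 and 0.000633). Ran, the GTPase that gives transport its direction, fell by 0.46 ± 0.06 on day 3 and rose by 0.31 ± 0.06 on day 9, and Nup93, of the pore, fell by 0.29 ± 0.04 on day 3. Ipo13, an importin reported to carry the receptor in human airway cells, rose by 0.67 ± 0.16 on day 3, or by 0.44 without the 2 libraries that lay apart. In vehicle of day 3 against day 0 the list already held 15 falls and 1 rise (median -0.67), or 88.9% called, beside 69.2% of all genes.

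Of 36 coregulators 6 rose and 10 fell on day 3 (median 0.01), 8 rose and 7 fell on day 6 (median 0.03) and 5 rose and 0 fell on day 9 (median -0.03). Without the 2 libraries that lay apart, 9 rose and 8 fell on day 3 (median 0.07), so the balance of the list on that day was not stable. Of the 2, only corticosterone day 3 replicate 4 enters the day 3 fold changes. The other acts on the day 3 calls through the shared estimate of spread. Ppargc1a, a coactivator of nuclear receptors, stood at 8.18 ± 0.30 log2 CPM with corticosterone and 6.74 ± 0.02 with vehicle on day 3 and rose by 1.44 ± 0.12, 1.73 ± 0.12 and 0.70 ± 0.12 on days 3, 6 and 9 (largest limma adjusted p = 6.23e-05). Trim24 rose by 0.57 ± 0.06 and Smarca2, a chromatin remodelling ATPase, by 0.17 ± 0.04 on day 3. Hdac1, a histone deacetylase, fell by 0.43 ± 0.04, Smarcc1 by 0.63 ± 0.09 and the arginine methyltransferase gene Prmt1 by 0.35 ± 0.06. Of 20 genes that phosphorylate, sumoylate or ubiquitylate the receptor 2 rose and 10 fell on day 3 (median -0.13), 1 rose and 9 fell on day 6 (median -0.14), and 1 rose and 3 fell on day 9 (median -0.03). The cell cycle kinase gene Cdk1 fell by 0.96 ± 0.07 on day 3 and Cdk2 by 0.19 ± 0.04, while Cdk5 and Pias2 rose by 0.24 ± 0.07 and 0.17 ± 0.06, or by 0.16 and 0.25 without the 2 libraries.

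Of 13 measured genes of corticosteroid metabolism, binding and export, from a list of 31, 5 rose and 3 fell on day 3 (median 0.12), 6 rose and 2 fell on day 6 (median 0.28) and 6 rose and 2 fell on day 9 (median 0.09). Por, which feeds electrons to cytochrome P450 enzymes, stood at 10.19 ± 0.11 log2 CPM with corticosterone and 8.69 ± 0.03 with vehicle on day 3, a rise of 1.501 ± 0.07 (limma adjusted p = 7.45e-16), and rose by 0.65 ± 0.07 on day 6. Akr1c13, of the aldo-keto reductases, rose by 0.85 ± 0.07, 0.89 ± 0.07 and 0.56 ± 0.07 on days 3, 6 and 9. Akr1c18, a steroid reductase, fell by 2.20 ± 0.29 on day 3 and by 3.42 ± 0.29 on day 6, with means of -2.04 ± 0.63 and -3.24 ± 0.64 log2 CPM in treated cells and 0.15 ± 0.41 and 0.18 ± 0.21 in vehicle cells (SD, n = 4 each). The treated values come near the lowest of the table, -4.15, so its fold changes depend on the authors' prior count. Srd5a2, a steroid 5-alpha-reductase, stood at 1.04 ± 0.16 with corticosterone and 2.21 ± 0.13 with vehicle on day 3, at 0.14 ± 0.23 and 3.08 ± 0.07 on day 6 and at 2.92 ± 0.04 and 4.02 ± 0.12 on day 9. Its log2 changes were -1.17 ± 0.12, -2.95 ± 0.12 and -1.10 ± 0.12 (largest limma adjusted p = 1.68e-07). Abcg2, an efflux pump gene, fell by 0.26 ± 0.11 on day 3, a call lost without the 2 libraries that lay apart (-0.20, adjusted p = 0.142), and rose by 0.45 ± 0.11 on day 9. Reads of Akr1c paralogs may not be fully separated.

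Among 13 measured genes of other steroid receptors and of FKBP-like proteins, from a list of 16, 6 rose and 3 fell on day 3 (median 0.03), 6 rose and 3 fell on day 6 (median 0.06) and 4 rose and 0 fell on day 9 (median 0.07). Of the FKBP genes, Fkbp3 rose by 0.57 ± 0.12, and Fkbp14, Fkbp9 and Fkbp1a fell by 0.40 ± 0.07, 0.26 ± 0.04 and 0.18 ± 0.06 on day 3. Aipl1, an immunophilin-like cochaperone gene, rose by 0.46 ± 0.11. Each of these FKBP changes was small beside the 3.05 of Fkbp5. Without the 2 libraries that lay apart, 4 genes of the list rose and 6 fell on day 3. Esr1, Esr2 and Pgr are not analysed here.

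**Figure D4:**
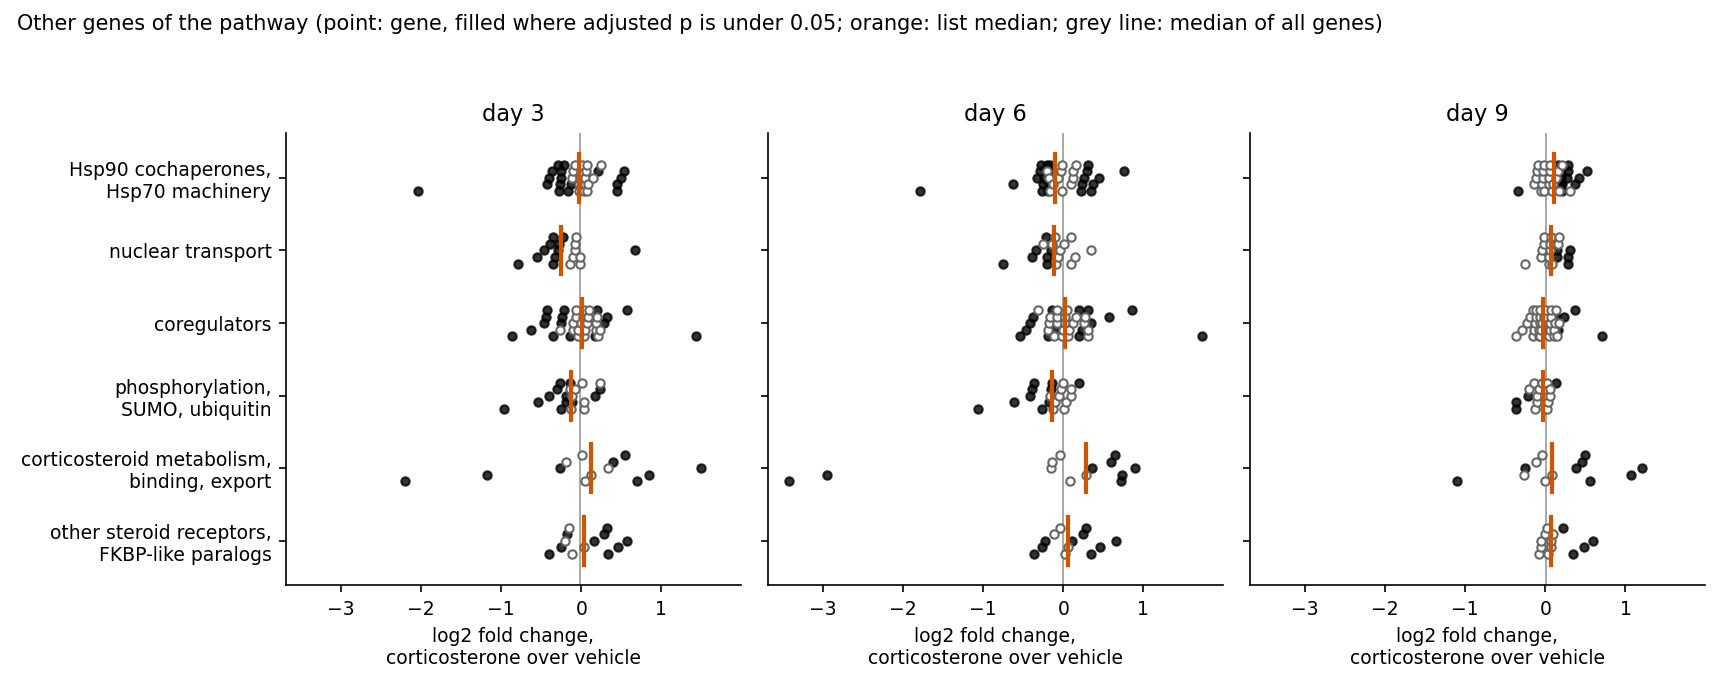
Log2 fold change of corticosterone over vehicle (horizontal axis) of each measured gene in 6 lists by role on days 3, 6 and 9; filled points passed adjusted p under 0.05, orange marks are list medians and the grey line is the median of all genes. The median of nuclear transport is -0.25 on day 3 and 0.07 on day 9, and that of cochaperones -0.02 and 0.11.

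To describe which genes ran closest to each of the 8, log2 CPM was correlated over the 28 libraries among 11687 genes with a mean of at least 1, libraries that share treatment and day within each group of 4. Nr3c1 ran closest to Gpc6, a glypican gene (r = 0.974), Slco5a1, Lrrc8b, Ildr2 and the cadherin gene Cdh6 (0.952). Fkbp5 ran closest to Gm46223 (r = 0.988), the glutamine synthetase gene Glul, Chd9, the receptor kinase gene Grk5 and Ldhd (0.981), with hormone effects on day 3 of 1.94, 3.12, 1.72, 1.68 and 3.26. Hsd11b2 ran closest to Nceh1 (r = 0.926), Slc35g1, the calcium channel gene Trpv4 and L1cam (0.881), and Nr3c2 to Stat5a (0.894), Ntng2 and Myo1d.

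Of the chaperone genes, Hsp90ab1 ran closest to Ttll12 (r = 0.993), Kpna2 and Khdrbs1, Ptges3 to the splicing factor gene Srsf3 (0.989), Khdrbs1 and Rbmxl1, Hsp90aa1 to Msn (0.986), Syncrip and Srsf6, and Fkbp4 to the pore gene Nup62 (0.963), Nip7 and Eif3b. Among the 8 themselves r was 0.964 between Hsp90ab1 and Ptges3, 0.955 between Hsp90aa1 and Hsp90ab1 and -0.905 between Nr3c1 and Fkbp5. With each group's mean removed these became 0.16, 0.17 and 0.14, so the likeness of these pairs lay between groups of treatment and day and hardly between libraries of one group. Other pairs did vary together within groups. There r went from 0.902 to -0.65 for Fkbp4 and Hsp90aa1 and from 0.48 to 0.63 for Nr3c1 and Hsp90aa1.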

How the data were processed

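Strand-specific mRNA libraries of DC2 cells were analysed from a table of normalized log2 CPM, deposited by the authors. The submitters' processing notes name kallisto without a version, edgeR 3.40.1, limma 3.54.0 and mouse build mm10. How the values were normalized, with which annotation and prior count, is not given in the sources used here, and no counts were used. Only 13.1 to 17.5% of low values fell on steps of whole reads, so read numbers are approximate and no count test was run. No 2 libraries were copies (smallest root mean square difference 0.282). An entry without a symbol (0.0267 to 0.0698% of CPM) was left out.

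Groups came from the labels. For corticosterone and vehicle of day 6 the deviations of the 3 same-numbered pairs had correlations of 0.156, 0.126 and 0.110 over all genes. Differently numbered pairs of these groups reached 0.229 (vehicle replicate 4 with corticosterone replicate 3) and 0.170 (vehicle replicate 5 with corticosterone replicate 6). The numbers thus did not single out pairs, and the main fit held no replicate block. Vehicle replicates 3 and 4 did correlate positively with corticosterone replicates 1 and 3 and negatively with 5 and 6. For example, vehicle replicate 4 gave 0.130 with corticosterone replicate 1 and -0.249 with replicate 6. Vehicle replicates 5 and 6 did the reverse. The main fit left this shared deviation in its residual, and its source was not tested. A filter (above 0 log2 CPM in 4 or more libraries) removed 0 of 13128 genes. Group means over the 28 libraries were estimated in limma 3.58.1 (R 4.3.3) with an intensity trend, leaving 21 residual degrees of freedom, and p-values were adjusted by Benjamini-Hochberg over all genes of a contrast. The fit was run on simulated data with independent normal noise and, for each gene, the same spread in every group. The real libraries had unequal spreads and shared deviations, which this simulation did not cover. Gene positions and transcript lengths came from GENCODE M21 (GRCm38), promoters from RefSeq (GRCm38.p6).

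The 8 genes and all lists were chosen with earlier results of these data known. All 8 genes were named in every comparison, and Esr1, Pgr, Hsd11b1 and H6pd whatever their values. From each list the up to 3 smallest p in each direction on day 3, among called genes, were named, and the nearest genes were those with the highest Pearson r. A few genes that these rules name are not reported here. Alternatives were other filters, scaling to the median or to common quantiles, a pseudocount of 1 or 5 CPM, fits of the compared groups alone, without trend, with robust moderation, with library weights or with a replicate block, adjusted p under 0.01 and leaving out each library. Leaving out both corticosterone day 3 replicate 4 and corticosterone day 6 replicate 6 was added after seeing the data.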

Additional observations from a re-analysis of the deposited data

Results flagged for a closer look

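Within the 56 sets of 4 libraries (8 genes in 7 groups), 4 had 1 library far from the other 3, by Dixon's test, which chance gives in about 1 of 20 sets. Fkbp5 stood at 8.32 log2 CPM in corticosterone day 6 replicate 6, against 9.13 to 9.19 in the other treated libraries of that day. Nr3c2 stood at 3.28 in corticosterone day 9 replicate 3, against 2.23 to 2.35 in the others. Hsd11b2 stood at 2.10 in vehicle day 6 replicate 3, against 2.29 to 2.32, and Ptges3 at 8.37 in vehicle day 6 replicate 5, against 8.22 to 8.24.

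The hormone effect differed between days, by limma's test of the difference itself, in 13 comparisons of 6 genes. From day 3 to day 6 it moved by 0.91 for Hsd11b2 (adjusted p = 0.0113). From day 6 to day 9 it moved by 0.67 for Nr3c1 (adjusted p = 0.000639), 1.02 for Hsd11b2 (0.00113), -1.86 for Fkbp5 (5.42e-09), 0.32 for Hsp90aa1 (0.000339), 0.59 for Hsp90ab1 (1.21e-06) and 0.37 for Ptges3 (0.00208). From day 3 to day 9 it moved by 0.95 for Nr3c1 (adjusted p = 7.49e-06), 1.92 for Hsd11b2 (2.14e-07), -2.30 for Fkbp5 (8.01e-11), 0.43 for Hsp90aa1 (7.56e-06), 0.61 for Hsp90ab1 (5.82e-07) and 0.31 for Ptges3 (0.00767). For the Hsp90 genes the sign of the effect was negative on days 3 and 6 and positive on day 9. For Hsd11b2 it was negative on day 3 and positive on days 6 and 9.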

How the results depend on the processing

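Nr3c1, Fkbp5, Hsp90aa1, Hsp90ab1 and Ptges3 kept direction and call under all 22 alternatives on days 3 and 6, and Fkbp5 and Hsd11b2 under all 21 on day 9. The number of the 8 genes called on day 9 was 3 with the groups compared fitted alone, 2 at adjusted p under 0.01 and 2 to 5 with single libraries left out, and 2401 genes in all were called at adjusted p under 0.01. Between corticosterone days 6 and 3 it was 2 with quantile normalization, 2 with the groups alone, 2 at adjusted p under 0.01 and 2 to 5 with single libraries left out, and over all genes 1629 with the groups alone and 2436 at adjusted p under 0.01. For the change of effect from day 3 to day 6 it was 2 with library weights, 0 at adjusted p under 0.01, 2 without both corticosterone libraries and 1 to 2 with single ones left out, and over all genes 766 with the groups alone and 591 at adjusted p under 0.01.

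Nr3c2 was never called between treatments, and its sign turned on day 6 with quantile normalization (-0.0185), log2(CPM + 1) (-0.0011) and log2(CPM + 5) (-0.0113), with library weights on day 3 (0.0538) and day 9 (-0.10) and in the changes of effect to day 9 from day 6 (-0.25) and day 3 (-0.16), and without both corticosterone libraries on day 3 (0.0784) and in the changes from day 3 to day 6 (-0.0472) and day 9 (-0.017). Leaving out single libraries gave it -0.20 to 0.0789, -0.15 to 0.25 and -0.19 to 0.27 on days 3, 6 and 9, and changes of effect of -0.0719 to 0.33 from day 3 to 6, -0.20 to 0.26 from day 6 to 9 and -0.11 to 0.35 from day 3 to 9. Uncalled values near 0 also turned. Hsd11b2 from corticosterone day 6 to 9 was 0.038 with library weights, 0.15 without both libraries and -0.17 to 0.15 without single ones. For the change of effect from day 3 to 6, Ptges3 was at 0.0335, 0.0018 and -0.13 to 0.0187 under the same settings, Fkbp4 at 0.0126 without both and -0.0633 to 0.0306 without single libraries, and Hsp90ab1 at -0.0122 to 0.0414. Ptges3 from corticosterone day 3 to 6 was at -0.0011 to 0.14 without single libraries. The cause of these turns was not tested.

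Same-numbered libraries of different groups deviated together only weakly (median correlation 0.0836 over 73 pairs, 26 of them over 0.1, and 9 of 28 libraries correlating best with their own number), though more than differently numbered ones (median -0.0331, 39 of 263 over 0.1). The numbers were therefore not taken as pairing in the main fit. Across treatments on day 6, though, replicates 1, 3 and 4 deviated together and opposite to replicates 5 and 6. The main fit left this in its residual. For corticosterone against vehicle on day 6 the replicate block gave 6 of the 8 genes called, as did the main fit, beside 47.2% of all genes there. With the replicate block as a fixed term the rise of Nr3c1 from corticosterone day 3 to 6 was 0.24 (adjusted p = 0.0679), and no other call among the 8 genes was lost. Nr3c2 turned to -0.11 on day 6, 0.0015 from corticosterone day 6 to 9 and -0.0523 for the change of effect from day 3 to 6 under the fixed replicate block, and to -6.2e-05 on day 6 under the random one.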
